A study of Mus musculus with 12 samples.

Results

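The mitochondrial shape and dynamics genes described here are 10 nuclear genes, Opa1, Mfn1, Mfn2, Dnm1l, Fis1, Mff, Immt, Chchd3, Chchd10 and Atad3a, taken by gene symbol from the 21493 genes counted in every library. Each symbol had 1 row, and all 10 genes passed the filter on low counts that left 13158 genes for testing, with between 205 and 9198 reads per library. Poly-A RNA was measured in adult cardiomyocytes of 3-month-old mice with the desmin gene (Des+/+) or without it (Des-/-), either after swimming exercise (swim) or kept without it (non-swim), in 4 groups of 3 libraries. The mice were of 129SV background and used independent of sex. A library pooled the cardiomyocytes of several mice, and the study's methods use the same group names for mice that also carried a GFP transgene under the αMHC promoter, which is active in heart muscle cells. The cells were released by perfusing the heart with trypsin and collagenase D and were harvested directly afterwards.

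Mitochondria divide, fuse and fold their inner membrane, and a small set of proteins does this work. The mitofusins Mfn1 and Mfn2 join outer membranes and Opa1 joins inner membranes, while Dnm1l (the protein is also called Drp1) is drawn from the cytosol to the outer membrane by receptors such as Mff and Fis1, where it constricts and divides the organelle. Immt (Mic60) and Chchd3 (Mic19) belong to the MICOS complex, which holds the necks of the cristae, the inner membrane folds that carry the respiratory chain. Cardiomyocytes depend on dense rows of mitochondria between their contractile fibres, and desmin, the main intermediate filament of muscle, links those fibres to mitochondria and to other organelles.

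Library depth, as reads counted in genes, was 8935126 to 12072443 in Des+/+ non-swim, 7425291 to 9440967 in Des+/+ swim, 8058801 to 11206142 in Des-/- non-swim and 4320819 to 6521963 in Des-/- swim. Des itself measured 963 to 3066 CPM (read counts scaled to the same library total) in Des+/+ libraries and 51.3 to 107 CPM in Des-/- libraries. On the first principal component, which held 48.9% of the variance, replicate 3 of each Des-/- group stood apart from the other libraries of its own group. The summed level of 8 cardiomyocyte markers was 41210 to 68130 CPM in Des+/+ non-swim, 21080 to 39050 in Des+/+ swim, 5243 to 18950 in Des-/- non-swim and 11780 to 19080 in Des-/- swim. Summed in the same way and group order, 10 fibroblast markers lay at 6260 to 7578, 5421 to 6788, 12850 to 43320 and 8762 to 16450 CPM, and 10 macrophage markers at 228 to 348, 259 to 328, 424 to 4334 and 234 to 1384 CPM. For 10 early response and heat shock genes that tissue dissociation can induce, the sums were 1219 to 2031, 1676 to 1911, 4048 to 8290 and 3522 to 5833 CPM, whereas 8 endothelial markers lay between 4118 and 7967 CPM in all groups. The 7 mural cell markers summed to 4014 to 5626, 4035 to 5246, 2880 to 3655 and 2389 to 5572 CPM, so that the non-swim genotypes did not overlap. No marker in these lists was at 0 in any group. The part these markers play in the results below was not tested, and in bulk RNA fewer cardiomyocytes in a library cannot be told apart from less RNA per cardiomyocyte.

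Promoter sequences of 9 of the 10 genes, not Atad3a, were matched in the RefSeq table for GRCm38.p6, each running from 250 bases before to 50 bases after a transcription start. Those of 3 genes are shown because they belong to the gene with the largest genotype difference (Chchd10), the gene with the smallest (Fis1, the first of its 2 listed starts) and the only one with a motif match (Opa1). Capitals mark the match.
Opa1 (chr16:29579084-29579383, plus strand): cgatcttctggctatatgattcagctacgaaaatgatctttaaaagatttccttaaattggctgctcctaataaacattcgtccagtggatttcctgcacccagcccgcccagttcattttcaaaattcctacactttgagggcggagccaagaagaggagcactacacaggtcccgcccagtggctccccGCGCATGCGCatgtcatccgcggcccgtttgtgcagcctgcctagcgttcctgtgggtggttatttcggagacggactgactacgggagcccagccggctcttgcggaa
Chchd10 (chr10:75932880-75933179, plus strand): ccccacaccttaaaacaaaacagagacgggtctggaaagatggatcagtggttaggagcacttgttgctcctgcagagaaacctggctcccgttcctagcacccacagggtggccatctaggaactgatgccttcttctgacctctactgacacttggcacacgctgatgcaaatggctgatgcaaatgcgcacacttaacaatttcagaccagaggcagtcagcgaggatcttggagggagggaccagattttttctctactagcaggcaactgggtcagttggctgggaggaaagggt
Fis1 (chr5:136953025-136953324, plus strand): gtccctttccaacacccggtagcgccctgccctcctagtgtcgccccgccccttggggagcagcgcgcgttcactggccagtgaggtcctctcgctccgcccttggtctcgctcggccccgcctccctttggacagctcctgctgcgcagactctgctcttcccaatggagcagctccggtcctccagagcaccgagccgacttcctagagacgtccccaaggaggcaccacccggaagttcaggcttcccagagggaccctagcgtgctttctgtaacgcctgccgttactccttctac
In all, 4 motifs were searched on both strands of the 14 promoters of the 9 genes. The capitals in Opa1 are the NRF1 core GCGCATGC at position -59 from the start site on the plus strand and at position -57 on the minus strand, where the near-palindromic motif overlaps itself. That core occurred in 2.71% of the 32851 promoters in the table. None of the 14 windows held the letters TCAAGGTCA or AAGGTCA, the extended and core sites of the oestrogen-related receptors, or TGACGTCA, the cAMP response element, which occurred in 0.423%, 4.72% and 1.79% of all promoters. The printed windows of Opa1, Chchd10 and Fis1 had a GC content of 53.3%, 52.0% and 65.0% against a median of 52.7% over all promoters.

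The first comparison asked how the loss of desmin was reflected in the 10 genes without exercise. Of the 10, 9 fell in Des-/- cardiomyocytes, by between 0.64 and 2.43 on the log2 scale, and Fis1 was the exception. Chchd10, Mfn2, Chchd3, Immt, Mfn1 and Opa1 were left at 18.5% to 36.4% of their Des+/+ level, and Mff, Dnm1l and Atad3a at 54.5% to 64.2%. Calls rest on edgeR's quasi-likelihood test with Benjamini-Hochberg adjustment over all genes tested and an adjusted p below 0.05. In this comparison 32.0% of all tested genes were called and 18.0% were called lower. The 9 called members also had libraries that did not overlap between the genotypes, which was true of 47.9% of all tested genes. The members' median log2 change was -1.50, beside 0.04 for all tested genes, -1.46 for the respiratory chain genes, of which 78 of 82 tested fell, and -1.97 for 18 sarcomere genes, of which 17 fell. In the same comparison 7 of 8 cardiomyocyte markers fell, and the other, Nppa, had a log2 change of 0.99 and was not called. Of the fibroblast markers 9 of 10, of the macrophage markers 8 of 10 and of the dissociation response genes 9 of 10 rose. DESeq2 called 5, 6 and 9 genes of these lists. Of 7 mural markers 1 fell, and 0 of 8 endothelial markers were called (0 at an unadjusted p below 0.05, and 0 with DESeq2).

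**Figure D1:**
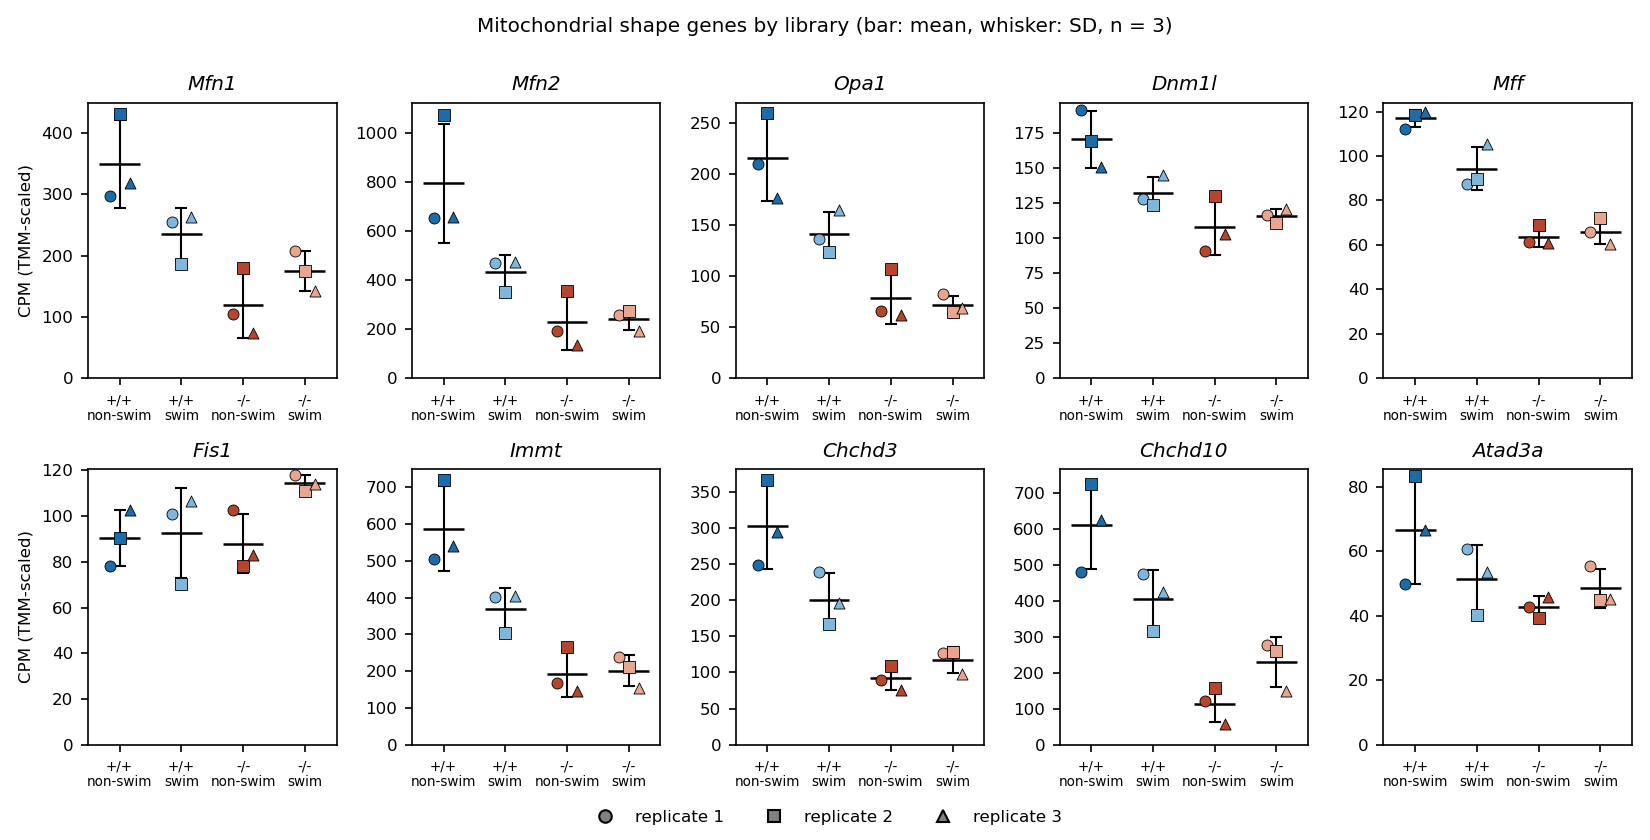
Level of each gene in every library, in TMM-scaled CPM on the vertical axis, for the 4 groups (+/+ is Des+/+, -/- is Des-/-); symbols are replicates 1 to 3, the bar is the mean and the whisker 1 SD (n = 3). In 9 panels the Des-/- non-swim libraries lie below every Des+/+ non-swim library, from Chchd10 at 58.3 to 158 against 481 to 725 CPM down to Atad3a at 39.3 to 45.9 against 49.7 to 83.2 CPM, while in the Fis1 panel they lie at 78.2 to 103 against 78.0 to 103 CPM.

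Among the fusion genes, Mfn2 (chr4:147873599-147904704, minus strand) had the highest counts. Its 3 Des+/+ non-swim libraries measured 655, 1075 and 656 CPM and its Des-/- non-swim libraries 193, 357 and 137 CPM. The lowest Des+/+ library thus lay well above the highest Des-/- library, and the log2 change was -1.80 ± 0.34 (SE, n = 3 per group, edgeR adjusted p = 0.00283). Mfn1 (chr3:32529465-32579239, plus strand), the other mitofusin, measured 298, 431 and 319 CPM in Des+/+ and 106, 179 and 73.4 CPM in Des-/-, a log2 change of -1.55 ± 0.30 (edgeR adjusted p = 0.00333). Opa1 (chr16:29579334-29654884, plus strand), the inner membrane fusion GTPase, measured 210, 259 and 177 CPM in Des+/+ and 66.0, 107 and 61.8 CPM in Des-/-, a log2 change of -1.46 ± 0.23 (edgeR adjusted p = 0.00125). For all 3 fusion genes replicate 2 was the highest library of both genotypes, and replicate 3 was the lowest Des-/- library. The spread between libraries of a group was widest for Mfn2, with an SD of 242 CPM in Des+/+ and 114 CPM in Des-/-.

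Among the members, the fission genes had smaller log2 changes than the fusion genes. Dnm1l (chr16:16312230-16358959, minus strand), the GTPase that divides mitochondria, measured 191, 169 and 151 CPM in Des+/+ and 91.0, 130 and 103 CPM in Des-/-, a log2 change of -0.66 ± 0.15 (edgeR adjusted p = 0.00764). Mff (chr1:82724890-82752394, plus strand), its receptor on the outer membrane, measured 112, 119 and 120 CPM in Des+/+ and 61.1, 69.1 and 60.8 CPM in Des-/-. Its log2 change of -0.88 ± 0.12 had the smallest SE of the 10 genes (edgeR adjusted p = 0.000915). Fis1 (chr5:136953275-136966234, plus strand), a small tail-anchored protein of the outer membrane that also can bind Dnm1l, measured 78.0, 90.5 and 103 CPM in Des+/+ and 103, 78.2 and 83.0 CPM in Des-/-. The genotypes covered the same range, and the log2 change of -0.04 had a 95% interval from -0.42 to 0.34 (edgeR adjusted p = 0.885). Its sign was positive under several of the alternative settings, for example 0.07 under upper-quartile scaling and 0.07 without replicate 3 of both Des-/- groups.

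The cristae genes held both the largest and the smallest called change. Immt (chr6:71831331-71877388, plus strand), the core subunit of MICOS, measured 504, 720 and 540 CPM in Des+/+ and 168, 265 and 147 CPM in Des-/-, a log2 change of -1.61 ± 0.25 (edgeR adjusted p = 0.00132). Chchd3 (chr6:32790976-33060260, minus strand), its partner in MICOS, measured 248, 366 and 294 CPM in Des+/+ and 89.6, 110 and 76.3 CPM in Des-/-, a log2 change of -1.72 ± 0.21 (edgeR adjusted p = 0.00082). Chchd10 (chr10:75933130-75937747, plus strand), a protein of the intermembrane space whose mutations cause motor neuron and muscle disease, measured 481, 725 and 626 CPM in Des+/+ and only 123, 158 and 58.3 CPM in Des-/-. Its log2 change was -2.43 ± 0.36 (edgeR adjusted p = 0.00113), the largest of the 10 genes in this comparison. Of the exon bases of Chchd10, 9.84% (155 bases) lie opposite an exon of Mmp11, which had 1604 reads in all 12 libraries together. The methods describe strand-aware counting, whereas the labels name a kit that does not mark strand, and in the latter case reads in that overlap could not be told apart. Atad3a (chr4:155740641-155761093, minus strand), an inner membrane ATPase needed for mitochondrial DNA organisation and cristae, measured 49.7, 83.2 and 66.7 CPM in Des+/+ and 42.8, 39.3 and 45.9 CPM in Des-/-, a log2 change of -0.64 ± 0.20 (edgeR adjusted p = 0.0293).

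The call for Atad3a was lost in several alternatives, while its log2 change stayed between -0.45 and -0.69. Its edgeR adjusted p was 0.0525 under upper-quartile scaling, 0.0501 with only the 6 libraries compared, 0.125 without Des+/+ non-swim replicate 2, 0.0702 without Des+/+ non-swim replicate 3, 0.0646, 0.0759 and 0.0502 without Des-/- non-swim replicates 1, 2 and 3, and 0.0532 without replicate 3 of both Des-/- groups. The other 8 genes were called in each of these fits. Without replicate 3 of both Des-/- groups, Chchd10 had a log2 change of -2.05, Chchd3 of -1.53, Mfn2 of -1.46, Immt of -1.37, Opa1 of -1.24, Mfn1 of -1.22, Mff of -0.77 and Dnm1l of -0.55.

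**Figure D2:**
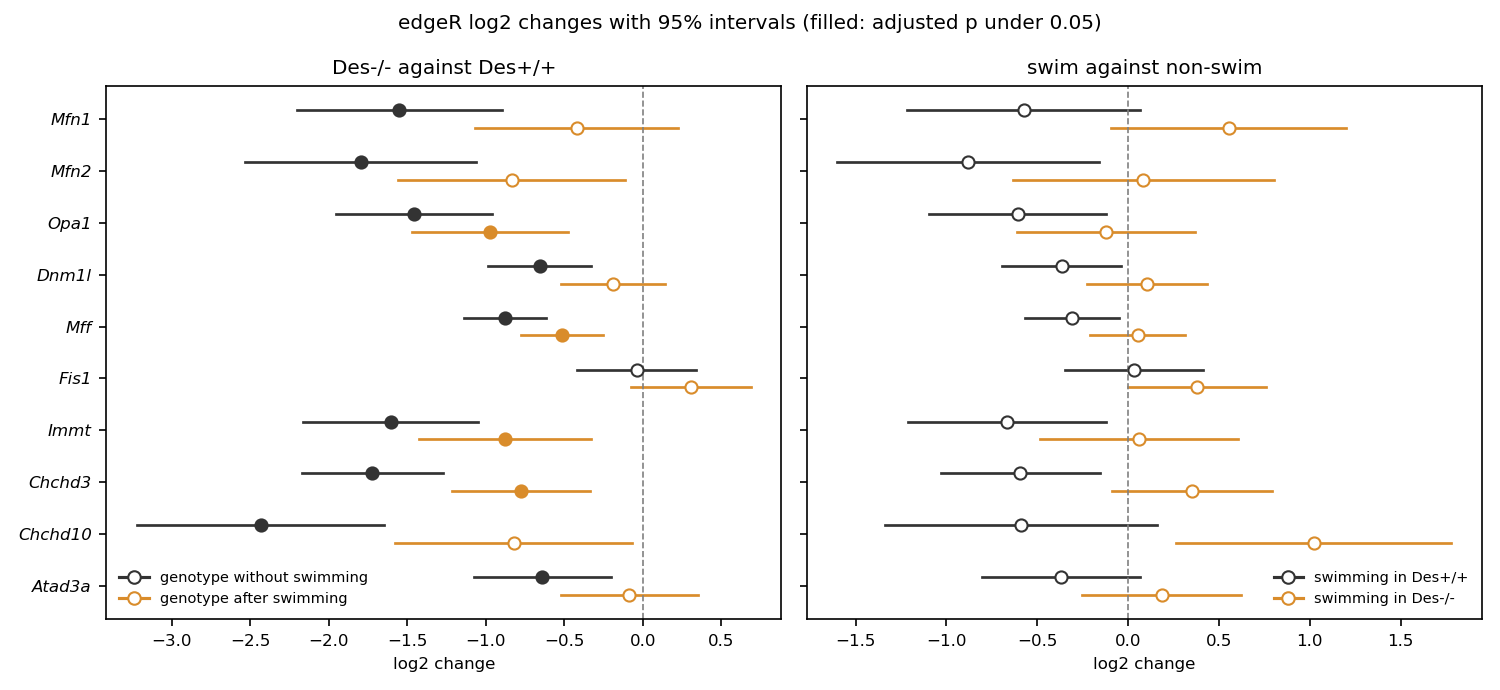
Log2 change of each gene with its 95% interval from edgeR; the left panel shows Des-/- against Des+/+ without swimming (dark) and after swimming (orange), the right panel swim against non-swim in Des+/+ (dark) and in Des-/- (orange), and filled points have an adjusted p below 0.05. In the left panel 9 dark and 4 orange points are filled; in the right panel none is, and Chchd10 in Des-/- reaches furthest to the right at 1.02.

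Because all 10 genes were counted in the same libraries, the ratio of any 2 of them within a library does not depend on its depth or on the scaling. This comparison was added after the data had been seen. For each of the 45 pairs the log2 ratio was compared between genotypes by an exact two-sided permutation test that exchanged genotype labels within the non-swim and within the swim libraries, which allows 400 arrangements and a smallest p of 0.005. After adjustment over the 45 pairs, 29 ratios differed between genotypes at an adjusted p below 0.05, each with an unadjusted p of at most 0.03. The same p was reached by 40.0% of the 83314686 pairs that can be formed from the 12909 tested genes with a read in every library. Pairs share genes and are not independent. Ordered by the genotype difference of their ratio to Fis1, the other genes ran from Atad3a, Dnm1l and Mff through Mfn1, Opa1, Chchd3, Immt and Mfn2 to Chchd10. Leaving out 1 library at a time gave between 24 and 30 such pairs, and leaving out replicate 3 of both Des-/- groups gave 21, of which 20 were among the 29. No called pair changed sign in these fits.

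**Figure D3:**
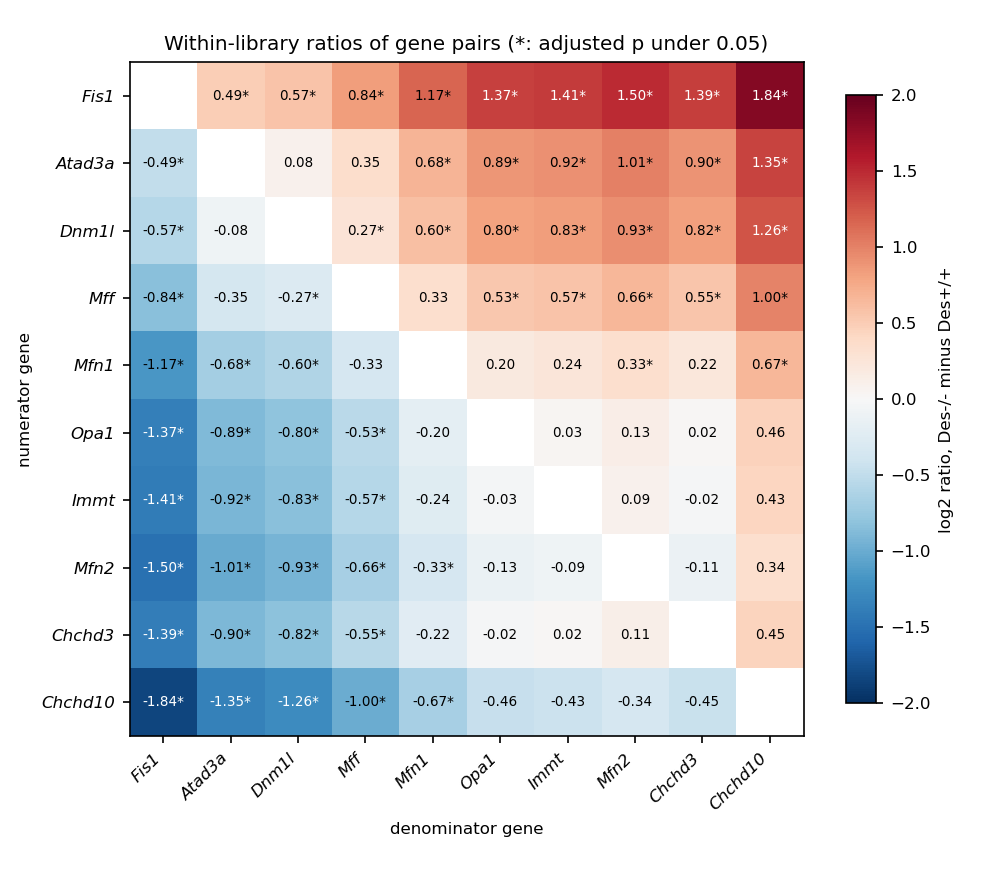
Difference between genotypes (Des-/- minus Des+/+, averaged over non-swim and swim) in the log2 ratio of the row gene to the column gene, red where the ratio is higher in Des-/- and blue where it is lower; asterisks mark an exact permutation adjusted p below 0.05. The row of Fis1 is red against all 9 other genes, from 0.49 against Atad3a to 1.84 against Chchd10, and the block of Opa1, Immt, Mfn2 and Chchd3 stays within 0.13 of 0 with no asterisk.

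Among the members, all 9 ratios of a fusion gene to a fission gene had a negative genotype difference, and 8 passed the threshold. Mfn1 to Mff did not (log2 difference -0.33, exact permutation p = 0.205, adjusted p = 0.249). Among the wider genes by role described below, the median log2 change without swimming was -0.78 for fission and -0.85 for fusion and Opa1 processing. The Mfn2 to Fis1 ratio was 8.39, 11.9 and 6.39 in Des+/+ non-swim and 4.68, 4.99 and 4.44 in Des+/+ swim, against 1.88, 4.56 and 1.65 in Des-/- non-swim and 2.2, 2.47 and 1.69 in Des-/- swim. Within each exercise state the genotypes did not overlap, and the log2 ratio differed by -1.50 (exact permutation p = 0.005, adjusted p = 0.0113). The Opa1 to Dnm1l ratio lay at 1.09, 1.53 and 1.17 in Des+/+ non-swim and at 1.06, 1.0 and 1.1 in Des+/+ swim. In Des-/- it lay at 0.726, 0.824 and 0.60 without swimming and at 0.706, 0.585 and 0.571 after swimming, so that every Des-/- library had more Dnm1l than Opa1 reads and no Des+/+ library did (its lowest ratio was 1.0). The log2 difference was -0.80 (exact permutation p = 0.005, adjusted p = 0.0113). The 2 Dnm1l receptors also parted from each other. The Fis1 to Mff ratio was 0.695, 0.763 and 0.858 in Des+/+ non-swim and 1.68, 1.1 and 1.36 in Des-/- non-swim, and over both exercise states the log2 ratio was 0.84 higher in Des-/- (exact permutation p = 0.005, adjusted p = 0.0113).

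Averaged over both exercise states, other pairs kept close ratios. The log2 ratio of Immt to Chchd3, the 2 MICOS subunits, differed by -0.02 between genotypes (exact permutation p = 0.85, adjusted p = 0.869), and that of Opa1 to Immt by 0.03 (exact permutation p = 0.77, adjusted p = 0.806). Opa1 to Mfn2, inner against outer membrane fusion, differed by 0.13 (exact permutation p = 0.46, adjusted p = 0.505). That value averages opposite shifts. The mean log2 ratio was -1.86 in Des+/+ and -1.48 in Des-/- without swimming, and -1.61 and -1.74 after it. Mfn2 to Immt measured 1.3, 1.49 and 1.22 in Des+/+ non-swim and 1.15, 1.35 and 0.928 in Des-/- non-swim. These values overlapped, and the log2 difference over both exercise states was -0.09 (exact permutation p = 0.43, adjusted p = 0.496). Dnm1l to Atad3a, the 2 genes with the smallest called changes, differed by -0.08 (exact permutation p = 0.65, adjusted p = 0.696). A p-value that misses the threshold does not show that these ratios were equal.

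The 2 mitofusins did not keep one ratio. Mfn1 reads were 0.455, 0.401 and 0.487 of Mfn2 reads in Des+/+ non-swim and 0.541, 0.532 and 0.554 in Des+/+ swim, and 0.546, 0.503 and 0.537 in Des-/- non-swim and 0.798, 0.641 and 0.737 in Des-/- swim. The genotypes did not overlap in either exercise state, and the exercise states did not overlap in either genotype. The log2 ratio was 0.33 higher in Des-/- (exact permutation p = 0.005, adjusted p = 0.0113). It was 0.37 higher after swimming, with the smallest p the test can give (exact permutation p = 0.005), but the adjusted p was 0.113. After adjustment, 0 of the 45 ratios differed between swim and non-swim libraries.

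**Figure D4:**
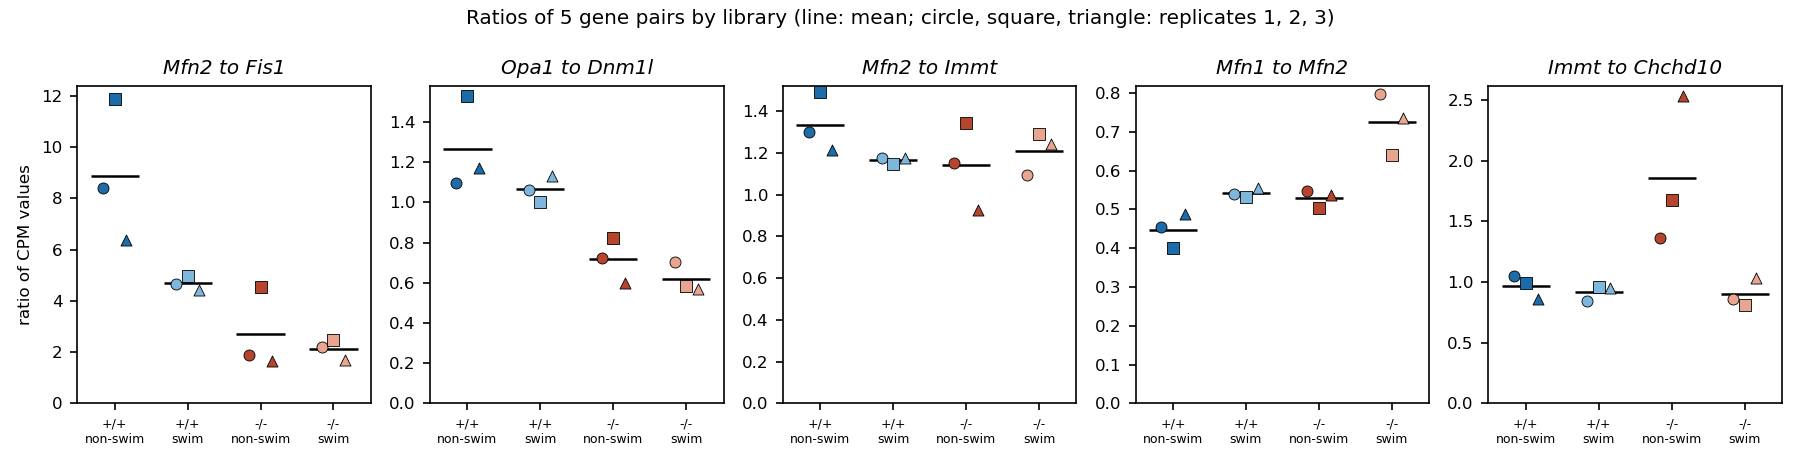
Ratio of CPM values of 5 gene pairs in every library, on linear axes from 0, for the 4 groups; symbols are replicates 1 to 3 and lines are group means. Mfn2 to Fis1 and Opa1 to Dnm1l are lower in Des-/- than in Des+/+ at both exercise states, Mfn2 to Immt overlaps between the non-swim groups, Mfn1 to Mfn2 is highest in Des-/- swim at 0.641 to 0.798, and Immt to Chchd10 is highest in Des-/- non-swim at 1.36 to 2.53.

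Immt to Chchd10 behaved differently again. The ratio was 1.05, 0.993 and 0.862 in Des+/+ non-swim, 0.844, 0.962 and 0.950 in Des+/+ swim and 0.858, 0.811 and 1.03 in Des-/- swim. Only the Des-/- non-swim libraries stood above 1.05, at 1.36, 1.68 and 2.53, and the genotype difference over both states was 0.43 on the log2 scale (exact permutation p = 0.065, adjusted p = 0.0886). With 3 against 3 libraries of one exercise state alone, an exact permutation test cannot go below 0.10.

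To compare levels between genes, counts were divided by the length of each gene's principal transcript and scaled so that every library had the same sum (TPM). In Des+/+ non-swim libraries Chchd10 came first with 871 TPM and did not overlap the next gene. Immt (458 TPM), Chchd3 (415 TPM) and Mfn2 (388 TPM) followed with ranges that overlapped from each to the next, then Fis1 at 246, Mfn1 at 163 and Mff at 132 TPM, each apart from its neighbours. Dnm1l (92.6 TPM), Opa1 (73.8 TPM) and Atad3a (58.4 TPM) closed the order, again with overlapping neighbours. In Des-/- non-swim libraries Fis1 headed the list with 302 TPM, followed by Chchd10 with 208 TPM, and Opa1 was last with 34.2 TPM, but the ranges of all neighbours overlapped. In Des+/+ swim libraries Chchd10 was again first at 633 TPM, and in Des-/- swim libraries Chchd10 (384 TPM) and Fis1 (363 TPM) overlapped and stood above Chchd3 (189 TPM). The order depends on the length used. With all exon bases in place of the principal transcript, Immt moved from rank 2 to 6 and Mff from rank 7 to 10 in Des+/+ non-swim libraries, and Chchd10 rather than Fis1 came first in Des-/- non-swim libraries.

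After swimming, the comparison of Des-/- with Des+/+ cardiomyocytes gave fewer calls. Opa1, Mff, Immt and Chchd3 fell, 9 of the 10 genes had a negative log2 change, and the median was -0.65 beside 0.02 for all tested genes. Of all tested genes, 10.6% were called and 5.57% were called lower. Opa1 measured 136, 124 and 164 CPM in Des+/+ swim and 82.2, 64.7 and 68.8 CPM in Des-/- swim, a log2 change of -0.97 ± 0.23 (n = 3 per group, edgeR adjusted p = 0.0244). Mff measured 87.5, 89.9 and 106 CPM against 65.7, 72.0 and 60.5 CPM, a log2 change of -0.51 ± 0.12 (edgeR adjusted p = 0.0249). For both genes all Des-/- libraries lay below all Des+/+ libraries. Chchd3 measured 239, 167 and 196 CPM against 127, 128 and 97.1 CPM (log2 change -0.78 ± 0.20, edgeR adjusted p = 0.0347). Immt measured 402, 305 and 404 CPM against 237, 212 and 155 CPM (log2 change -0.88 ± 0.25, edgeR adjusted p = 0.0466).

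Mfn2, Chchd10 and Mfn1, among the genes that fell without exercise, missed the threshold in the swim groups. Mfn2 measured 472, 350 and 474 CPM in Des+/+ swim and 260, 274 and 192 CPM in Des-/- swim, which did not overlap, with a log2 change of -0.83 (edgeR adjusted p = 0.116). Chchd10 measured 476, 317 and 425 CPM against 277, 262 and 150 CPM, with a log2 change of -0.82 (edgeR adjusted p = 0.132). Mfn1 measured 255, 186 and 263 CPM against 208, 176 and 142 CPM, where the groups overlapped, with a log2 change of -0.42 (edgeR adjusted p = 0.353). Dnm1l and Atad3a had log2 changes of -0.19 and -0.09. Fis1 was the one gene above 0, with 101, 70.2 and 107 CPM in Des+/+ swim and 118, 111 and 114 CPM in Des-/- swim (log2 change 0.31, edgeR adjusted p = 0.256). For 8 of the 10 genes the groups did not overlap, as did 35.9% of all tested genes.

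Beside these calls, 1 of 8 cardiomyocyte markers was called lower, and 1 of 10 fibroblast markers and 6 of 10 dissociation response genes were called higher. Called or not, 7 of 8 cardiomyocyte markers had a negative log2 change (median -0.80) and 10 of 10 fibroblast markers a positive one (median 0.92). The median was -0.49 for the respiratory chain genes (13 of 82 called lower) and -0.64 for the sarcomere genes (1 of 18 called lower). Nppa was the 1 cardiomyocyte marker with a positive log2 change (1.72, not called). The 4 member calls changed when single libraries were left out, although the log2 changes stayed between -0.85 and -1.0 for Opa1, -0.43 and -0.51 for Mff, -0.63 and -0.84 for Chchd3 and -0.71 and -1.02 for Immt in the fits that lost them. None of the 10 genes was called without Des+/+ swim replicate 3 or without Des-/- swim replicate 3. One was called without Des+/+ swim replicate 1, without Des-/- swim replicate 1 and without Des-/- swim replicate 2, and 2 without Des+/+ non-swim replicate 3. Without replicate 3 of both Des-/- groups Opa1 alone was called (log2 change -0.93, edgeR adjusted p = 0.0332), and upper-quartile scaling left 2 calls.

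In Des+/+ cardiomyocytes, swim against non-swim libraries showed no called member. Of the 10 log2 changes, 9 were negative, from -0.88 for Mfn2 to -0.31 for Mff, with 0.03 for Fis1, and the median was -0.58 beside -0.08 for all tested genes. Negative changes were also found for 78 of 82 respiratory chain genes (median -0.39) and 18 of 18 sarcomere genes (median -0.83). The same held for 8 of 8 cardiomyocyte markers (median -0.83). edgeR called 0.0912% of all tested genes in this comparison. Of the 10 genes, 6 had an unadjusted p below 0.05 (Opa1, Mfn2, Dnm1l, Mff, Immt and Chchd3), and DESeq2 called 0. Of all 13158 tested genes, 2697 had an unadjusted p below 0.05, and DESeq2 called 790. The levels of 8 genes did not overlap between the states, against 31.3% of all tested genes. Mfn2 went from 655, 1075 and 656 CPM to 472, 350 and 474 CPM (log2 change -0.88, 95% interval -1.60 to -0.16, edgeR adjusted p = 0.176), and Chchd3 from 248, 366 and 294 CPM to 239, 167 and 196 CPM (log2 change -0.59, 95% interval -1.03 to -0.15, edgeR adjusted p = 0.146). This comparison shares its non-swim libraries with the genotype comparison without swimming, and Des+/+ non-swim replicate 2 was the highest library in 7 of the panels of levels.

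In Des-/- cardiomyocytes, too, swim against non-swim libraries gave no called member. The median log2 change was 0.14 beside -0.01 for all tested genes, and edgeR called none of the 10 genes and 0.0228% of all tested genes. The median was 0.62 for the respiratory chain genes, of which 80 of 82 had a positive change. It was 0.50 for the sarcomere genes, of which 17 of 18 did. Of the 10 members, Chchd10 alone had an unadjusted p below 0.05, and DESeq2 called 0. Of all 13158 tested genes, 2201 had an unadjusted p below 0.05, and DESeq2 called 333. Chchd10 measured 123, 158 and 58.3 CPM without and 277, 262 and 150 CPM after swimming. The mean was 113 CPM without and 230 CPM after swimming, although the lowest swim library lay below the highest non-swim library, and the log2 change was 1.02 (95% interval 0.27 to 1.78, edgeR adjusted p = 0.214). Mfn1 measured 106, 179 and 73.4 CPM without and 208, 176 and 142 CPM after swimming (log2 change 0.55, edgeR adjusted p = 0.357). Fis1 was the only gene whose libraries did not overlap, at 78.2 to 103 CPM without and 111 to 118 CPM after swimming (log2 change 0.38, edgeR adjusted p = 0.300), and 19.4% of all tested genes had no overlap. Opa1 stayed at 61.8 to 107 CPM without and 64.7 to 82.2 CPM after swimming (log2 change -0.12, 95% interval -0.61 to 0.37).

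A different response to swimming in the 2 genotypes was tested as an interaction, the swimming change in Des-/- minus that in Des+/+. The estimate was positive for all 10 genes, from 0.34 for Fis1 to 1.61 for Chchd10, and the median was 0.64 beside 0.03 for all tested genes. It was also positive for 81 of 82 respiratory chain genes (median 1.02) and 18 of 18 sarcomere genes (median 1.31). The same held for 8 of 8 cardiomyocyte markers (median 1.33). Of all 13158 tested genes, 2148 had an unadjusted p below 0.05, and DESeq2 called 318. With edgeR 0 of the 10 members and 0% of all tested genes were called. Of the 10, 4 (Mfn1, Dnm1l, Chchd3 and Chchd10) had an unadjusted p below 0.05. DESeq2 called 1, Chchd10 (log2 estimate 1.61, DESeq2 adjusted p = 0.0425), for which edgeR gave a 95% interval from 0.55 to 2.67 and an adjusted p of 0.199. Over its edgeR alternatives that adjusted p ranged from 0.0899, without replicate 3 of both Des-/- groups, to 0.447, without Des+/+ non-swim replicate 2.

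A wider list of 69 genes with known roles in mitochondrial division, fusion, cristae, cardiolipin, transport and mitophagy was read from the same fit. Of these, 68 were found and 66 tested. Without swimming 42 fell and 1 rose in Des-/-, with a median log2 change of -0.71, and after swimming 14 fell and none rose, with a median of -0.29. These counts, and those by role below, stand beside the 18.0% of all tested genes called lower without swimming and the 5.57% called lower after it, and a role with 1 call of 10 or 12 lies near that background. Among the 12 tested genes for fusion and Opa1 processing, 11 fell without swimming. They included the proteases Afg3l2 (log2 change -1.40) and Oma1 (-1.20), which cuts Opa1, and the prohibitin Phb (-1.21), an inner membrane scaffold, with edgeR adjusted p between 0.00115 and 0.00178. After swimming 1 of the 12, the Opa1 protease Yme1l1, was called (log2 change -0.47, edgeR adjusted p = 0.0447), beside 10.6% of all tested genes.

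Among 16 genes for MICOS and cristae, 12 fell without swimming and 4 after it. Apoo (Mic26), an apolipoprotein-like MICOS subunit, averaged 69.3 CPM in Des+/+ non-swim and 13.9 CPM in Des-/- non-swim (log2 change -2.33 ± 0.31, edgeR adjusted p = 0.000903). After swimming it averaged 43.6 and 14.1 CPM (log2 change -1.64 ± 0.31, edgeR adjusted p = 0.0145). Apool (Mic27) fell by 1.39 and Mtx2, an outer membrane partner of MICOS, by 1.38 on the log2 scale without swimming. After swimming Mtx2 and Chchd4, the import receptor of the intermembrane space, had log2 changes of -1.06 and -0.84 (edgeR adjusted p = 0.00944 and 0.0170), and Apool was the fourth called gene (-0.81, edgeR adjusted p = 0.0130).

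The 12 tested fission genes gave 7 that fell without swimming and 3 after it. Mtfp1 (MTP18), an inner membrane fission protein, fell by 2.2 on the log2 scale without swimming (edgeR adjusted p = 0.00283), and its change after swimming was -1.0 (edgeR adjusted p = 0.121). The fission regulators Mtfr1 and Mtfr1l fell in both comparisons, Mtfr1 by 1.34 and 0.97 and Mtfr1l by 1.27 and 0.74, and so did Slc25a46, an outer membrane carrier, by 1.06 and 0.65. Dnm2, a general membrane-scission GTPase, and the actin regulators Inf2 and Spire1 had log2 changes of 0.08, 0.11 and 0.40 without swimming and were not called.

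Cardiolipin is the inner membrane lipid that fusion and cristae need. Of 8 tested genes for its making and remodelling 3 fell and 1 rose without swimming. Lclat1, an acyltransferase, fell by 1.67, Pnpla8, a mitochondrial phospholipase, by 1.17 and Taz, the remodelling enzyme tafazzin, by 0.84 on the log2 scale. Prelid1, which carries phosphatidic acid to the inner membrane, was the gene that rose, from 58.8 to 109 CPM (log2 change 0.88 ± 0.22, edgeR adjusted p = 0.0122). Its SD in Des-/- non-swim was 35.4 CPM, and it was no longer called without Des+/+ non-swim replicate 2. After swimming Lclat1 (-1.03) and Pnpla8 (-0.54) were called lower.

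**Figure D5:**
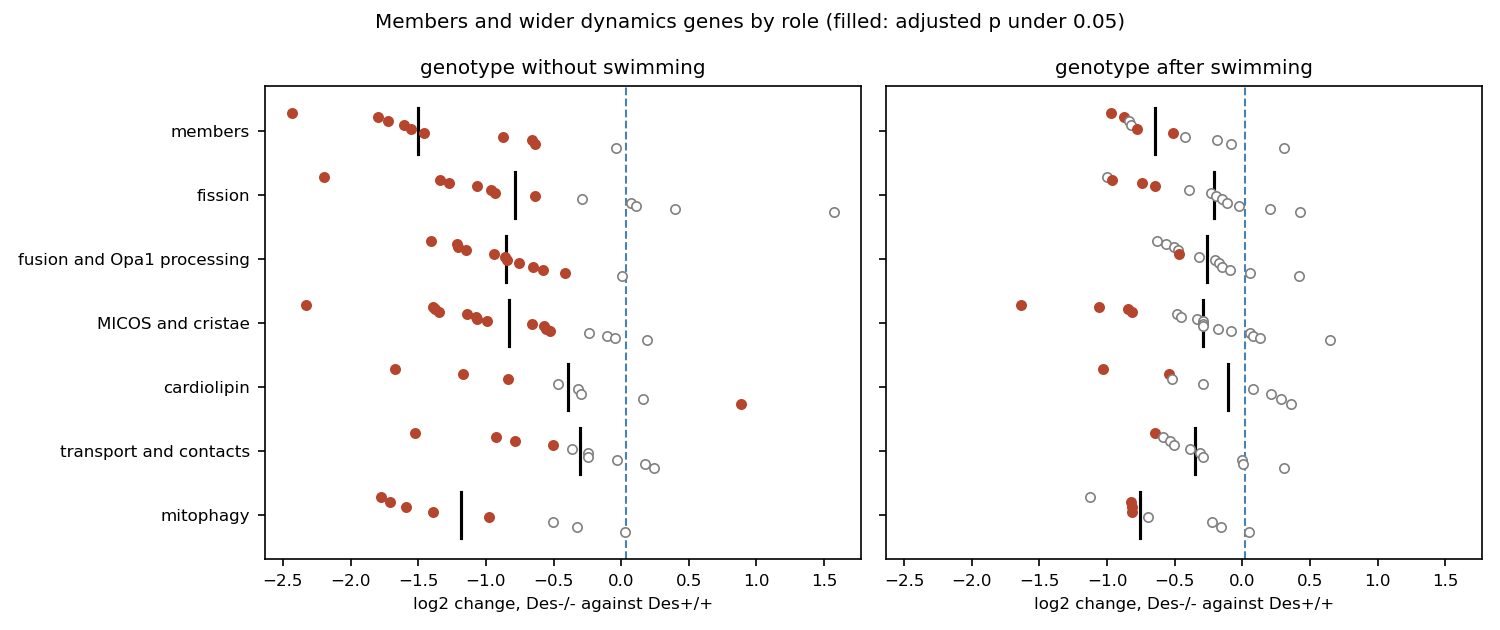
Log2 change between genotypes for the 10 genes (top row) and for the wider genes by role, without swimming on the left and after swimming on the right; filled points have an edgeR adjusted p below 0.05, black bars are list medians and the dashed line is the median of all tested genes. On the left the members' median is -1.50 and the mitophagy median -1.19, against -0.31 for transport and contacts; on the right all medians lie between -0.76 and -0.11.

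Of 10 genes for mitochondrial transport and contacts, 4 fell without swimming, where 32.0% of all tested genes were called in either direction: the outer membrane GTPases Rhot1 (log2 change -0.51) and Rhot2 (-1.53) and the motor adaptors Trak1 (-0.93) and Trak2 (-0.78). Kif5b, the kinesin motor itself, measured 321 and 314 CPM (log2 change -0.03, edgeR adjusted p = 0.907). After swimming 1 of the 10, Trak1, was called (-0.65, edgeR adjusted p = 0.0233), beside 10.6% of all tested genes. Among 8 mitophagy genes 5 fell without swimming, among them the kinase Pink1 (-1.59), the outer membrane receptors Bnip3 (-1.71) and Bcl2l13 (-0.98) and the autophagy receptor Optn (-1.39). Bnip3, Bcl2l13 and Optn were also called after swimming, each with a log2 change of -0.82 or -0.83. In the swimming comparisons and the interaction edgeR called 0 of the 66 genes. An unadjusted p below 0.05 was found for 19 (Des+/+), 6 (Des-/-) and 24 (interaction) of them, and DESeq2 called 9, 2 and 4. Among all 13158 tested genes, 2697, 2201 and 2148 had such an unadjusted p, and DESeq2 called 790, 333 and 318. The 14 calls after swimming became 5 without Des+/+ swim replicate 1, 2 without Des+/+ swim replicate 3 and 7, 6 and 7 without Des-/- swim replicates 1, 2 and 3.

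Over the 12 libraries the members' log2 levels moved together to different degrees. Pearson's r was 0.99 between Mfn2 and Immt, 0.98 between Immt and Chchd3 and 0.96 between Mfn1 and Mfn2, and Fis1 had r between -0.31 and 0.28 with the other 9 genes. Taken within groups, as deviations from the group mean, r was 0.95, 0.91 and 0.97 for the same 3 pairs. For other pairs r within groups was far lower, for example 0.11 for Dnm1l and Chchd3 (0.83 over the 12 libraries) and 0.06 for Mff and Atad3a (0.65). All libraries share the group differences, so these values are descriptions. Outside the members and the wider list, the gene most like each member among the 12083 tested genes whose counts averaged 20 or more was Slc25a4 for Chchd10 (r = 0.998), Acat1 for Immt (0.998), Asb2 for Mfn2 (0.995), Kcnk3 for Mfn1 (0.993), Hspa9 for Opa1 (0.992), Acads for Chchd3 (0.990), Etfrf1 for Mff (0.988), Cxadr for Dnm1l (0.960), Znrd2 for Atad3a (0.953) and Rrp1 for Fis1 (0.934).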

How the data were processed

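RNA of adult cardiomyocytes was sequenced as 100 bp single-end reads in 12 libraries, 3 per group, with groups and replicate numbers taken from the sample labels. The authors deposited unnormalised read counts for each gene, obtained by alignment to GRCm38 with HISAT2 2.2.1, sorting with SAMtools 1.13 and counting by HTSeq in reverse-strand mode. The authors tested with DESeq2 1.40.2. Labels and methods name different library kits, of which the labelled one does not mark strand. Unique reads assigned to no gene made up 34.0% to 39.3% in Des+/+ non-swim, 45.9% to 50.4% in Des+/+ swim, 34.2% to 52.3% in Des-/- non-swim and 57.2% to 64.5% in Des-/- swim, and were left out of library sizes and tests.

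From these counts, edgeR 4.0.16 in R 4.3.3 (filterByExpr, TMM scaling, 1 mean per group, all 12 libraries in 1 fit, 13158 genes) gave log2 changes and p-values by the quasi-likelihood test, with Benjamini-Hochberg adjustment over all genes tested. Each SE was derived as the absolute log2 change divided by the square root of the test's F statistic. The 95% intervals were built from these SEs. CPM are TMM-scaled except those of Des, and TPM used GENCODE M21 transcript lengths (21488 of 21493 genes matched). Counts of members and of the wider list are read from this fit, with no test over a list. The fit was tested on simulated data. Alternatives were DESeq2 1.42.0, RLE and upper-quartile scaling, no filter, only the 6 libraries compared, a replicate block, the study's filter (absolute log2 change of at least 0.6, p of at most 0.05, mean count of at least 20) on edgeR's p, and each library left out. Leaving out replicate 3 of both Des-/- groups, and the ratio tests with their background over all gene pairs, were added after seeing the data. Members and lists were chosen with earlier results of these data known. All 10 members are named. Of the wider list, the text names per role and comparison the 3 called genes with the largest change in each direction (mean count of at least 20), except that 1 such gene is not reported here; others it names were chosen after their values were seen. Same-numbered libraries deviated together only between Des-/- non-swim and Des-/- swim (r = 0.36, 0.32 and 0.60). Replicates 1 and 2 of these groups also did so across numbers (r = 0.30 and 0.29), while replicate 3 against either had r from -0.47 to -0.41. The labels do not say that a number marks a shared batch. Each library is a pool of mice, so p-values measure the spread between pools.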

Additional observations from a re-analysis of the deposited data

How the results depend on the processing

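Of the 10 log2 changes per comparison, those of the genotype comparison without swimming kept their direction in every alternative for 9 genes. Fis1 turned positive under upper-quartile scaling (0.066), without the filter on low counts (0.024), without replicate 3 of both Des-/- groups (0.070) and, with 1 library left out, over a range of -0.17 to 0.059. After swimming, Atad3a moved to 0.0086 under upper-quartile scaling and ranged from -0.24 to 0.048 with 1 library left out. Small swimming changes also crossed 0 with 1 library left out: in Des+/+ Fis1 (-0.081 to 0.20), and in Des-/- Opa1 (-0.26 to 0.17), Mfn2 (-0.17 to 0.55, and -0.027 without both replicate 3 libraries), Dnm1l (-0.0075 to 0.26), Mff (-0.013 to 0.12) and Immt (-0.09 to 0.36). The cause was not tested.

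The 4 members called after swimming became 2 under upper-quartile scaling, 1 without replicate 3 of both Des-/- groups and 0 to 5 with 1 library left out. Under the study's filter with unadjusted p, members called numbered 3 for swimming in Des+/+, 1 for swimming in Des-/- and 3 for the interaction, and DESeq2 gave 1 for the interaction. For the wider list, 0 calls for swimming in Des+/+ became 9 with DESeq2, 2 with only the 6 libraries compared, 1 with the replicate block, 3 without replicate 3 of both Des-/- groups, 5 under the study's filter and 0 to 1 with 1 library left out. Swimming in Des-/- gave 2 with DESeq2 and 1 under the study's filter, and the interaction 4 and 18. Wider genes called after swimming ranged from 2 to 17 with 1 library left out, and without swimming from 34 to 44. With the replicate block, 9 members were called without swimming, 4 after swimming and 0 for swimming in Des-/-, and no other call on a member changed.

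Depth limits the Des-/- swim group most, at 4320819 to 6521963 reads in genes.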
